A study of Mus musculus with 160 samples.

Results

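The comparison described here is that of *Gpsm3* knockout and wild-type mice in distal colon, made after allowing for how inflamed each sample was. Its members were all samples whose labels name the GPSM3 mouse line, which gave 40 of the 160 samples of the series. Of these, 20 carried the genotype label HO, described as a homozygous knockout, and 20 the label WT. Every one of the 40 mice was labelled male and of strain C57BL6/J. Per the methods of the study, an existing knockout was re-derived, heterozygotes were bred to each other and the genotypes were housed together, and the mice were young adults matched for age. The nature of the deleted allele was not given in the sources used here. The protocol of the line was 3% dextran sulfate sodium (DSS), a sulfated polysaccharide that damages the lining of the colon and is given by mouth, for 5 days, followed by 5 days of plain water and collection of tissue on day 10. The labels do not say which mice received DSS, so treated and untreated mice were compared together, and an inflammation score stood in for the state of the tissue. The sample titles fall into 2 series of numbers with 10 knockout and 10 wild-type samples in each. The question addressed was whether the 2 genotypes differ in gene expression beyond what their degree of inflammation accounts for in the model.

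GPSM3 is a G-protein signaling modulator found mainly in leukocytes. Its GoLoco motifs bind inhibitory Gα subunits in their GDP-bound state, and these subunits couple the receptors through which chemoattractants guide neutrophils and monocytes. In DSS colitis such cells enter the injured mucosa, where neutrophils supply the calcium-binding proteins S100A8 and S100A9 and where interferon-γ and tumor necrosis factor (TNF) induce further chemokines and guanylate-binding proteins.

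The inflammation score of a sample was the mean of log2(CPM + 1) over 4 genes, where CPM is the raw count of a gene per 1000000 counts of the library. The genes were *S100a8* and *S100a9*, which neutrophils express at high levels, *Il1b*, which encodes interleukin-1β, and *Cxcl2*, a neutrophil chemoattractant. *Krt1*, a keratin of stratified skin, and *Acta1*, the actin of skeletal muscle, entered the model beside the score, because a distal colon sample can include anal skin and sphincter. Genes were tested with edgeR's quasi-likelihood test, and a gene is said here to have risen or fallen where its Benjamini-Hochberg adjusted p over all genes tested was under 0.05. All fold changes are log2 values of knockout relative to wild type, given with a standard error (SE).

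*Gpsm3* (ENSMUSG00000034786; mm10 chromosome 17, 34589806 to 34591754, plus strand) checks the labels. Its counts went against the label in 3 of the 40 libraries. Among the libraries labelled knockout, 18 had 0.238 to 0.944 CPM (4 to 16 counts), with a median of 0.535, whereas replicate 1 had 2.75 CPM (48 counts) and replicate 11 had 3.47 CPM (62 counts). Among the libraries labelled wild type, 19 had 1.95 to 7.90 CPM (20 to 158 counts), with a median of 3.16, whereas replicate 11 had 0.731 CPM (12 counts). Apart from these 3 libraries the genotypes did not overlap. Since groups follow the labels, all 40 libraries stayed in every main result, "knockout" and "wild type" below mean the label, and each leading result is given with and without these 3. In the other 3 mouse lines of the series, median *Gpsm3* levels by genotype lay between 3.29 and 4.23 CPM.

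As labelled, *Gpsm3* averaged 0.777 CPM ± 0.829 (SD, n = 20) in knockout and 3.34 CPM ± 1.47 (SD, n = 20) in wild-type libraries, and a two-sided permutation test of this difference gave p = 2e-05, the smallest value that its 100000 resamples can give. The difference was −2.22 CPM in the first number series (permutation p = 6e-05) and −2.91 CPM in the second (permutation p = 0.00034). Without the 3 libraries, which were picked by this same level, the means were 0.518 CPM ± 0.208 (SD, n = 18) and 3.48 CPM ± 1.37 (SD, n = 19). Residual reads on the gene were thus counted in every knockout library. The last 489 bases of *Gpsm3* overlap the start of *Pbx2* on the same strand, and from which gene reads in that stretch came cannot be told apart.

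**Figure D1:**
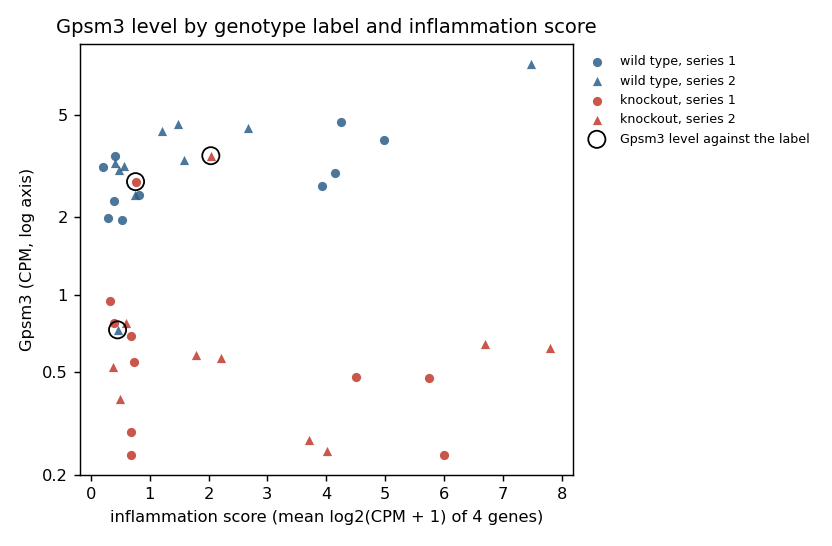
Gpsm3 level (CPM, log axis) against the inflammation score in 40 libraries, with 1 point per library, color for the genotype label, shape for the number series of the title and a ring around the 3 libraries whose Gpsm3 level went against the label. The other 18 knockout libraries lie at or below 0.944 CPM and the other 19 wild-type libraries at or above 1.95 CPM over the whole range of scores.

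Total counts were 14601777 to 19993833 in 39 libraries and 4344988 in wild-type replicate 17, so that the detection limit of 3 counts was 0.15 CPM in the deepest and 0.69 CPM in the shallowest library. These limits cover counting error only. Of 26 gene lists, the colonocyte list (17 genes) summed to between 7290 and 18920 CPM in knockout and between 9030 and 16553 CPM in wild-type libraries, so the samples carried markers of colon. No gene of any list that was found in the files was at 0 in all 40, which does not tell tissues apart. Anal skin and striated muscle markers were high in 3 libraries, knockout replicates 11 and 19 and wild-type replicate 10, with *Krt1* at 1264, 2683 and 4644 CPM and *Acta1* at 2524, 1567 and 1537 CPM. In every other library *Krt1* was at most 1.20 CPM and *Acta1* at most 32.7 CPM.

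The score had a lowest, median and highest value of 0.323, 1.27 and 7.81 in knockout and 0.203, 0.789 and 7.48 in wild-type libraries. The genotypes overlapped up to a score of 4.98. Above it the only wild-type library was replicate 14, at 7.48, beside knockout replicates 3, 7, 18 and 14, at 5.75 to 7.81. Comparison at equal score thus rested on that library for wild type at high scores. The mean score was 2.51 ± 2.45 (SD, n = 20) against 1.85 ± 2.04 (SD, n = 20), a difference of 0.66 (two-sided permutation test, p = 0.362) that was smaller than the spread within either genotype. The difference was 0.056 in the first number series (permutation p = 0.972) and 1.26 in the second (permutation p = 0.248). *S100a8* ranged from 0.0590 to 356 CPM in knockout and from 0 to 334 CPM in wild-type libraries, and *Il1b* from 0.597 to 285 CPM and from 0.662 to 131 CPM. Mean *Krt1* and *Acta1* on the log2(CPM + 1) scale differed by 0.509 (permutation p = 0.702) and 0.411 (permutation p = 0.607).

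The score captured a change in much of the transcriptome. In the adjusted fit, which holds genotype, score, *Krt1* and *Acta1*, 29.8% of 17557 genes rose with the score (5236 genes) and 29.4% fell (5170 genes), the score's own genes being left out. Among the neutrophil markers, which overlap the score in what they measure, 7 of 8 rose, with a median slope of 0.87 on the log2 scale per unit of score. Fibroblast and matrix genes rose in 14 of 16, monocyte and macrophage markers in 16 of 17 and T and NK cell markers in 16 of 17 with the other 1 falling, whereas all 10 smooth muscle markers and 8 of 12 goblet cell markers fell. Interferon-γ response genes rose with the score in 25 of 33 and type I interferon response genes in 12 of 24. In bulk tissue, more cells of a type and more RNA per cell cannot be told apart.

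After the adjustment, 2 of 17560 genes differed by genotype, *Gpsm3* itself, which fell, and *Smox*, which rose. These were 0.0114% of the genes tested. *Gpsm3* had a log2 fold change of −2.20 (SE 0.269, adjusted p = 1.07e-05), and without the 3 libraries whose *Gpsm3* level went against the label it was −2.72 (SE 0.173, adjusted p = 2.52e-13). Those 3 were picked by their *Gpsm3* level, so the larger value and smaller p follow from that choice and are no separate test. In the first number series alone the value of *Gpsm3* was −1.96 (adjusted p = 0.4996) and in the second −3.01 (adjusted p = 0.00439). At an unadjusted p under 0.05, 445 genes were higher in knockout, 2.53% of those tested, and 296 were lower, 1.69%. The direction of this excess depended on the libraries rich in *Krt1* and *Acta1*, since without those 3 the counts were 595 higher and 626 lower. Without covariates *Gpsm3* alone passed, 0.00569% of the genes tested, with 589 genes higher (3.35%) and 265 lower (1.51%) at an unadjusted p under 0.05. These became 1021 and 517 without wild-type replicate 14, and 811 and 533 without the 3 libraries rich in *Krt1* and *Acta1*.

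*Smox* (ENSMUSG00000027333, chromosome 2, 131491496 to 131525922) encodes spermine oxidase, an enzyme of polyamine breakdown that converts spermine to spermidine and releases hydrogen peroxide. Its lowest, median and highest levels were 22.2, 28.6 and 75.9 CPM in knockout and 19.3, 23.5 and 64.2 CPM in wild-type libraries. The genotypes overlapped, with 18 of 20 knockout libraries above the wild-type median and 3 above the highest wild-type library. At equal score, *Krt1* and *Acta1* its log2 fold change was 0.31 (SE 0.0530, edgeR quasi-likelihood test, adjusted p = 0.00763), and it rose with the score itself by 0.22 per unit (SE 0.0115). Without covariates the difference was larger and less precise, at 0.48 (SE 0.167, adjusted p = 0.936). The value was 0.32 in the first and 0.33 in the second number series, neither of which passed the test on its own (adjusted p = 0.4996 and 0.649). Without the 3 libraries whose *Gpsm3* level went against the label it was 0.31 (adjusted p = 0.0185), and with the score as the only covariate 0.30 (adjusted p = 0.104). Over all alternatives the value lay between 0.30 and 0.48 and the adjusted p between 0.00013 and 0.936.

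**Figure D2:**
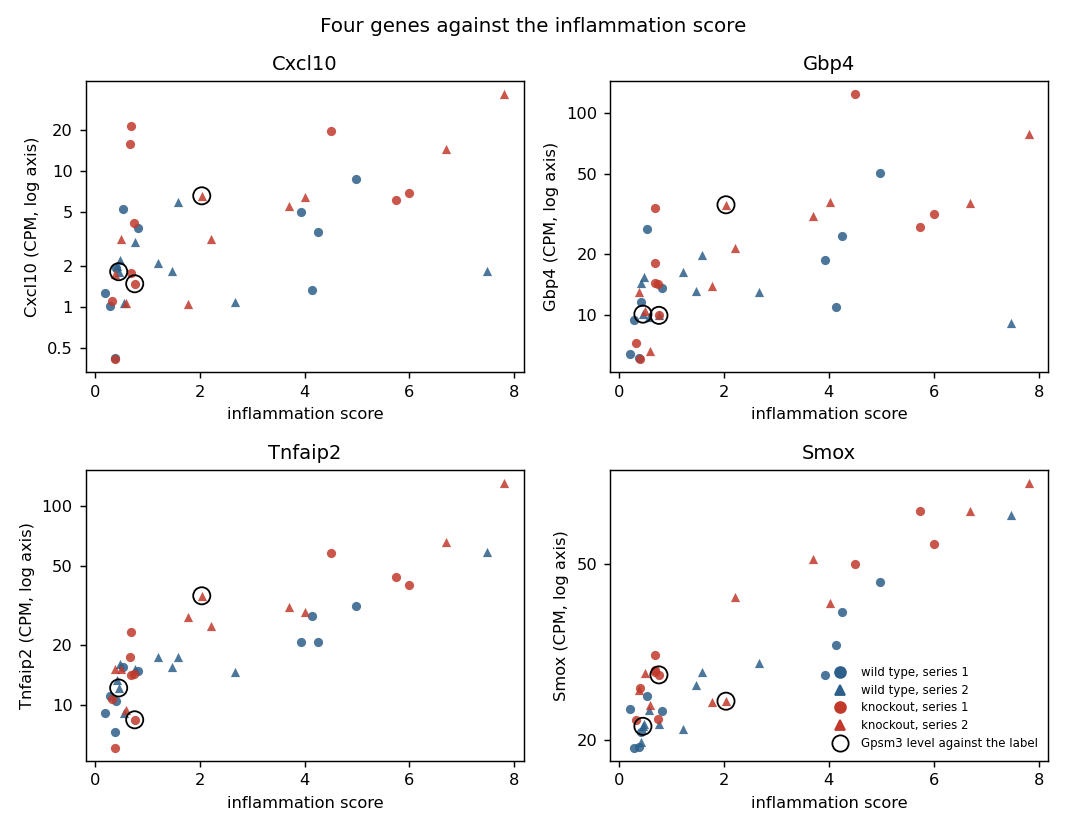
Levels of Cxcl10, Gbp4, Tnfaip2 and Smox (CPM, log axis) against the inflammation score, with 1 point per library, color for the genotype label, shape for the number series and a ring around the 3 libraries whose Gpsm3 level went against the label. All 4 genes rose with the score in the adjusted fit over both genotypes, and 5 knockout libraries exceed the highest wild-type library for Cxcl10, 2 each for Gbp4 and Tnfaip2, and 3 for Smox.

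*Cxcl10* encodes a chemokine that attracts activated T cells through CXCR3. It was measured at 0.418, 4.86 and 36.8 CPM (lowest, median and highest) in knockout and at 0.426, 1.98 and 8.81 CPM in wild-type libraries. Of the knockout libraries, 13 lay above the wild-type median and 5 above every wild-type library, namely replicates 14, 4, 10, 8 and 18 with 36.8, 21.6, 19.7, 15.8 and 14.6 CPM. Its log2 difference was 1.53 (SE 0.429) without covariates and 1.22 (SE 0.382) at equal score, with an unadjusted p of 0.00283 that did not pass over all genes (adjusted p = 0.977). The adjusted value was 1.35 in the first number series and 0.75 in the second, and 1.23 without the 3 libraries whose *Gpsm3* level went against the label.

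*Gbp4* encodes an interferon-inducible guanylate-binding protein. Its levels were 6.03, 19.7 and 124 CPM in knockout and 6.09, 13.01 and 50.1 CPM in wild-type libraries, where 2 knockout libraries exceeded all wild-type ones. The log2 difference of 0.91 (SE 0.316) without covariates was 0.50 (SE 0.254, unadjusted p = 0.0579, adjusted p = 0.977) with them, and 0.49 without the 3 libraries against the label.

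*Tnfaip2*, a gene induced by TNF, was at 6.15, 24.2 and 131 CPM in knockout and at 7.37, 15.5 and 59.2 CPM in wild-type libraries. Again 2 knockout libraries lay above the wild-type range. Its log2 difference went from 0.81 (SE 0.293) to 0.35 (SE 0.127, unadjusted p = 0.00932, adjusted p = 0.977) on adjustment, and was 0.38 without the 3 libraries against the label. *Cxcl10*, *Gbp4* and *Tnfaip2* all rose with the score, by 0.22 (adjusted p = 0.0268), 0.27 (adjusted p = 0.000162) and 0.34 (adjusted p = 1.42e-13) on the log2 scale per unit.

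Genes of the type I interferon response, many of which restrain viruses, had the most members at a low unadjusted p. All 24 had a positive adjusted difference, from 0.26 to 1.02 with a median of 0.60 on the log2 scale, beside a median of 0.00 over all 17560 genes. At an unadjusted p under 0.05, 19 of 24 were higher and none lower, beside 2.53% and 1.69% of all genes. None passed over all genes (smallest adjusted p = 0.977), and since interferon genes are induced together their values are not independent of each other. Without covariates the median was 0.74, with 21 of 24 higher, beside 3.35% of all genes.

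The promoters of 3 interferon-inducible genes are shown because nearly all members of both interferon lists had differences of the same sign. Capitals mark matches to GAAANNGAAA, or TTTCNNTTTC on the other strand, the core of the element that interferon-activated transcription factors recognize, with overlapping matches joined. Each run holds the 250 bases before the gene start, read 5′ to 3′ along the gene, from RefSeq (GRCm38.p6). *Isg15*, which encodes a ubiquitin-like modifier, is on the minus strand (chr4:156200819-156201068), *Ifit1*, which encodes a sensor of viral RNA, on the plus strand (chr19:34640639-34640888), and *Cxcl10* on the minus strand (chr5:92348890-92349139).
Isg15: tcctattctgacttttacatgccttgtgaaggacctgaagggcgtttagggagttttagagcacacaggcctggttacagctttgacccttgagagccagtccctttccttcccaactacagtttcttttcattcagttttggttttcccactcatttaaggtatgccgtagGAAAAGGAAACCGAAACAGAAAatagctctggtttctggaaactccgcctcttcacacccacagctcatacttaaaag
Ifit1: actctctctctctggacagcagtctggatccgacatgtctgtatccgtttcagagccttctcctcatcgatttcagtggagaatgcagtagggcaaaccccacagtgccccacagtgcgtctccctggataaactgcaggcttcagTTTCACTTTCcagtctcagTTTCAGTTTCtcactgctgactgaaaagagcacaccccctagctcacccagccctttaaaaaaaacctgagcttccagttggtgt
Cxcl10: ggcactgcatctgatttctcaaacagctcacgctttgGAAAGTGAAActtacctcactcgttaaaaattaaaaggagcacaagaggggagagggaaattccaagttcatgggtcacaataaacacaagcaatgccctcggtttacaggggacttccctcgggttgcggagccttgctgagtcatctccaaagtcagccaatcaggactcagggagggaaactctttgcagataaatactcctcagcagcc
*Isg15* has 3 overlapping matches, *Ifit1* has 2 and *Cxcl10* has 1. Of all 32851 promoter windows of this length, 2.98% hold a match on either strand. Among genes with a window in the table, 8 of 17 of the type I list (47.1%), 11 of 21 of the interferon-γ list (52.4%) and 0 of 19 of the TNF list did. A match is a description of the sequence only.

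*Isg15* lay at 1.55, 10.5 and 69.4 CPM (lowest, median and highest) in knockout and at 0.688, 3.81 and 46.2 CPM in wild-type libraries, with an adjusted log2 difference of 0.76 (SE 0.412, unadjusted p = 0.0746). *Ifit1* lay at 3.90, 32.6 and 194 CPM and at 4.32, 9.68 and 96.7 CPM, with 0.88 (SE 0.394, unadjusted p = 0.0312). *Rsad2*, which encodes the antiviral protein viperin, lay at 5.43, 18.3 and 87.6 CPM and at 5.58, 8.82 and 41.0 CPM, with 0.88 (SE 0.293, unadjusted p = 0.00453). The genotypes overlapped for all 3 genes, with 19, 18 and 16 of 20 knockout libraries within the wild-type range. The wild-type library of the highest score, replicate 14, weighed on the count: without it 9 of 24 members were higher at an unadjusted p under 0.05, with a median of 0.54. Without the 3 libraries rich in *Krt1* and *Acta1* it was 10 of 24 (median 0.56), without the 3 whose *Gpsm3* level went against the label 22 of 24 (median 0.67), and with the score as the only covariate 11 of 24. In these fits, in the same order, 2.67%, 3.39%, 2.52% and 2.18% of all genes were higher at that level. Within the first and second number series the count was 3 and 4 of 24, with medians of 0.53 and 0.83, where 5.45% and 2.50% of all genes were higher at that level.

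Interferon-γ response genes, among them guanylate-binding proteins, immunity-related GTPases and antigen-processing genes, had a median adjusted log2 difference of 0.35, positive in 32 of 33 members. Of these, 6 were higher at an unadjusted p under 0.05, *Cxcl10*, *Gbp7*, *Irf1*, *Irgm1*, *Socs1* and *Batf2*, and none was lower. Over all genes 2.53% were higher and 1.69% lower at that level. *Gbp7* had 0.58 (SE 0.218) and the transcription factor gene *Irf1* 0.41 (SE 0.157). Without covariates 21 of 33 were higher, beside 3.35% of all genes, with a median of 0.65. The adjustment thus moved this list more than the type I list. TNF response genes had a median of 0.13, with 5 of 22 higher, *Nfkb1*, *Tnfaip2*, *Nfkbie*, *Bcl3* and *Nfkb2*, beside 2.53% of all genes. Without covariates 9 of 22 were higher, beside 3.35% of all genes, with a median of 0.27. *Nfkb1*, which encodes an NF-κB subunit, differed by only 0.08 (SE 0.0300), and *Nfkbie*, which encodes an inhibitor of NF-κB, by 0.27 (SE 0.102). In the first number series 1 of 32 interferon-γ genes tested and 1 of 22 TNF genes were higher, and in the second 6 of 33 and 2 of 22, beside the same 5.45% and 2.50% of all genes. Without the 3 libraries whose *Gpsm3* level went against the label, 6 of 33 interferon-γ genes (median 0.39) and 5 of 22 TNF genes (median 0.16) were higher, beside 2.52% of all genes. Without wild-type replicate 14, the interferon-γ count was 4 of 33 (median 0.26), beside 2.67% of all genes.

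**Figure D3:**
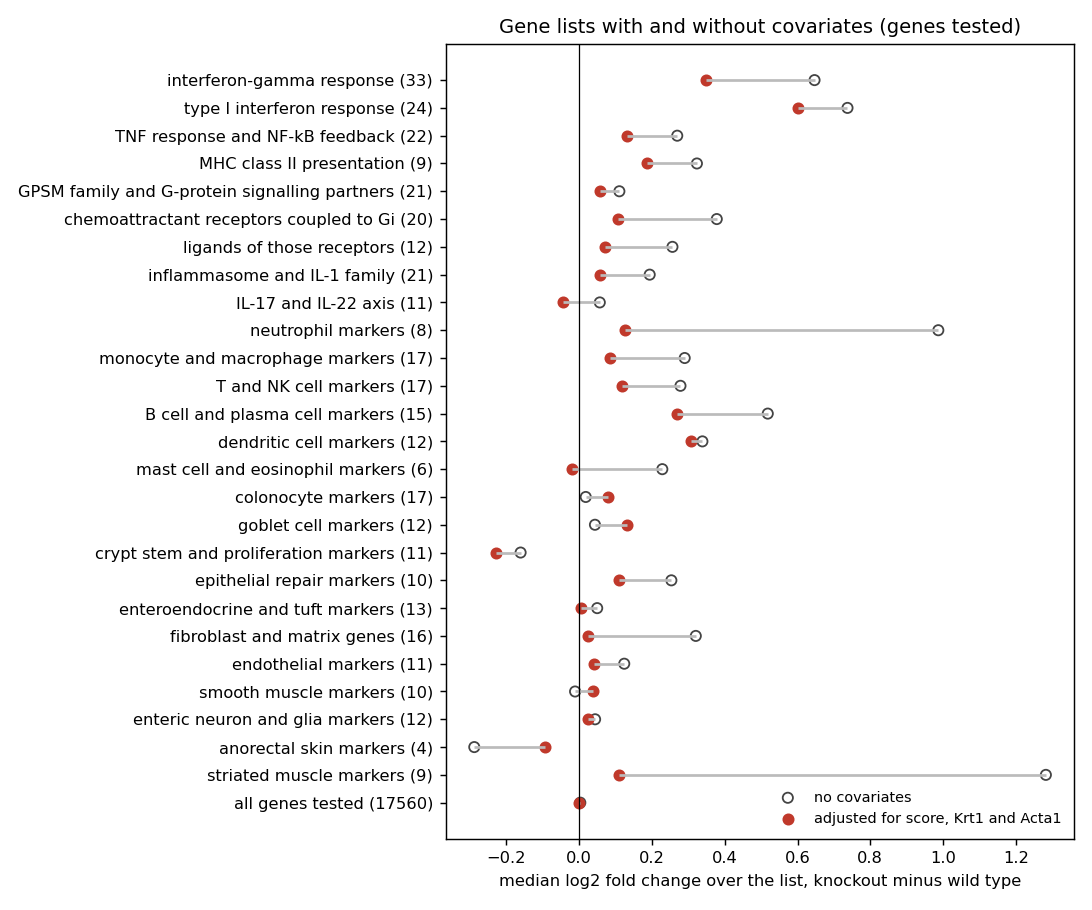
Median log2 fold change (knockout relative to wild type) of the members tested in each gene list, without covariates and after adjustment for score, Krt1 and Acta1. The type I interferon list keeps a median of 0.60 after adjustment and the neutrophil list goes from 0.99 to 0.13. Neutrophil markers overlap the score in what they measure, so their fall follows from the adjustment itself.

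The signaling partners of GPSM3 showed small differences. The 21 genes of the GPSM family and of its G-protein partners include the Gα subunits and the regulators of G-protein signaling that speed GTP hydrolysis. Their median adjusted log2 difference was 0.06. Of the 21, *Rgs2* alone had an unadjusted p under 0.05, at 0.22 (SE 0.0993), beside 4.22% of all genes in either direction. The paralogs *Gpsm1* and *Gpsm2* had 0.07 (SE 0.0746) and −0.06 (SE 0.0683), and *Gnai2* and *Gnai3*, which encode inhibitory Gα subunits, had 0.02 (SE 0.0377) and −0.04 (SE 0.0420). Among chemoattractant receptors coupled to inhibitory G proteins, 0 of 20 reached an unadjusted p under 0.05 after adjustment (median 0.11). Without covariates 4 of 20 were higher at that level (median 0.38), beside 3.35% of all genes. The neutrophil receptor gene *Cxcr2* had 0.11 (SE 0.253) after adjustment. Among the ligands of these receptors 1 of 12 reached that p after adjustment, *Cxcl16* at 0.27 (SE 0.107), beside the same 4.22% of all genes. Inflammasome and interleukin-1 family genes had 0 of 21 (median 0.06), and genes of the interleukin-17 and interleukin-22 axis 0 of 11 (median −0.04).

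Markers of the cell types in the tissue were counted beside these lists. Neutrophil markers had a median of 0.99 without covariates and 0.13 with them, with 0 of 8 at an unadjusted p under 0.05 in either fit. Because they overlap the score in what they measure, this fall follows from the adjustment and says nothing about genotype. The summed level of the neutrophil markers was 42.2 to 809 CPM (median 118) in knockout and 39.8 to 629 CPM (median 69.9) in wild-type libraries. Monocyte and macrophage markers summed to 233 to 1953 CPM (median 783) and 432 to 1302 CPM (median 677), with 0 of 17 at an unadjusted p under 0.05. T and NK cell markers had 0 of 17 as well, and their part in the interferon values was not tested.

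Dendritic cell markers had a median adjusted log2 difference of 0.31, positive in all 12. At an unadjusted p under 0.05, 3 of 12 were higher, beside 2.53% of all genes. These were *Siglech*, a marker of plasmacytoid dendritic cells, at 0.63 (SE 0.192), *Itgax*, which encodes CD11c, at 0.40 (SE 0.154), and *Irf8* at 0.22 (SE 0.108). The dendritic count was 0 of 12 in the first number series and 3 of 12 in the second, beside 5.45% and 2.50% of all genes. Without wild-type replicate 14 it was 2 of 12, beside 2.67% of all genes. Without the 3 libraries whose *Gpsm3* level went against the label it was 3 of 12, beside 2.52% of all genes. Plasmacytoid dendritic cells are a known source of type I interferon, and *Siglech* was at 0.893, 2.03 and 4.38 CPM in knockout and 0.450, 1.59 and 2.80 CPM in wild-type libraries. The list summed to 99.2 to 393 CPM (median 207) and 125 to 238 CPM (median 181), and its part in the interferon values was not tested. B cell and plasma cell markers had 5 of 15 higher, *Ighm*, *Jchain*, *Mzb1*, *Irf4* and *Igha*, with a median of 0.27, beside 2.53% of all genes. They had 0 of 15 without the 3 libraries whose *Gpsm3* level went against the label, 0 of 15 with limma-voom and 0 of 15 with the score as the only covariate. In these fits, in the same order, 2.52%, 2.31% and 2.18% of all genes were higher.

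Epithelial lists had few members at a low unadjusted p. Colonocyte markers had a median of 0.08 and 0 of 17 at an unadjusted p under 0.05. Of 12 goblet cell markers, *Retnlb*, which encodes a secreted antimicrobial protein, had 2.01 (SE 0.671, unadjusted p = 0.00473, adjusted p = 0.977), with 0.118, 5.89 and 105 CPM in knockout and 0.125, 2.04 and 25.4 CPM in wild-type libraries. Crypt stem and proliferation markers were all below 0 in 11 of 11 members, with a median of −0.23 and none at an unadjusted p under 0.05. Fibroblast and matrix genes went from a median of 0.32 without covariates to 0.02 with them, with 0 of 16.

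The interaction of genotype and score tests whether the slope of a gene on the score differs between genotypes. No gene passed with edgeR's quasi-likelihood test (0% of 17560), with 178 slopes more positive in knockout (1.01%) and 126 more negative (0.718%) at an unadjusted p under 0.05. Leaving out 1 library, wild-type replicate 14, moved these counts to 595 and 498, and leaving out the 3 libraries whose *Gpsm3* level went against the label moved them to 130 and 98, with 0 genes passing in either case. DESeq2 and limma-voom also called 0, with 206 and 127, and with 210 and 140, at that level. *Cxcl10*, *Gbp4*, *Tnfaip2* and *Smox* had differences of slope of 0.02, 0.14, 0.09 and 0.02 (unadjusted p = 0.929, 0.296, 0.144 and 0.485). *Cxcl10* had −0.22 in the first number series (unadjusted p = 0.503) and 0.46 in the second (unadjusted p = 0.0113), and *Gbp4* 0.07 (unadjusted p = 0.742) and 0.31 (unadjusted p = 0.00473), so the direction for *Cxcl10* was not shared by the series. *Gpsm3* itself had a slope of 0.20 in wild type and −0.19 in knockout, a difference of −0.39 (SE 0.114, unadjusted p = 0.00156, adjusted p = 1). The difference was −0.24 (SE 0.0708) without the 3 libraries whose *Gpsm3* level went against the label, but these were picked by that same level. Without wild-type replicate 14, which had the highest *Gpsm3* level (7.90 CPM), the difference was −0.31 (SE 0.131, edgeR unadjusted p = 0.0249).

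MHC class II genes, which present peptides to CD4+ T cells, had the most members with an unadjusted interaction p under 0.05. The slope was more positive in knockout for all 9, with a median difference of 0.20 beside 0.00 over all genes, although that of *Ctss*, which encodes the protease cathepsin S, was below 0 in both genotypes (−0.08 in wild type and −0.02 in knockout). Of the 9, 6 were at an unadjusted p under 0.05, *H2-DMb1*, *H2-Ab1*, *Cd74*, *H2-Aa*, *H2-Eb1* and *H2-DMa*, while none passed over all genes (adjusted p = 1). Over all genes 1.01% had a more positive slope in knockout at that level. *H2-Ab1*, a chain of the class II molecule, had a slope of −0.04 (SE 0.0689) in wild type and 0.18 (SE 0.0582) in knockout, a difference of 0.22 (SE 0.0942, unadjusted p = 0.0234). Its levels were 25.3, 86.5 and 238 CPM in knockout and 44.9, 80.1 and 160 CPM in wild-type libraries. *H2-Ab1* (34257689 to 34269419), *H2-Aa* (34282744 to 34287823) and *H2-Eb1* (34305867 to 34316674) lie on chromosome 17, as does *Gpsm3* (34589806 to 34591754). Any part of this closeness in their values was not tested. Class II genes share a transcriptional activator, *Ciita*, so their values are not independent of each other. The count rested on 1 library: without wild-type replicate 14 it was 0 of 9, with a median of 0.12, beside 3.39% of all genes. Without the 3 libraries whose *Gpsm3* level went against the label it was 4 of 9, beside 0.742% of all genes. In the first number series it was 0 of 9 and in the second 2 of 9. There 1.87% and 1.77% of all genes had a more positive slope in knockout at that level.

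**Figure D4:**
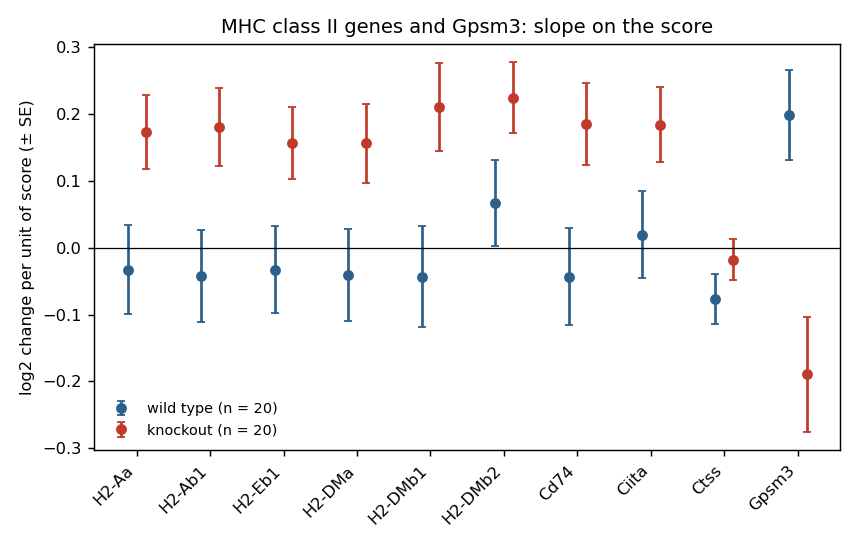
Slope on the inflammation score (log2 change per unit of score) in 20 wild-type and 20 knockout libraries, for 8 of the 9 MHC class II genes, for Ciita, their transcriptional activator, and for Gpsm3, with bars for the standard error. The gene not shown, Ifi30, was the only 1 of the 9 that rose with the score in wild type (edgeR adjusted p = 0.0187). The median over the 9 genes is −0.04 in wild type and 0.17 in knockout, and the 6 genes at an unadjusted p under 0.05 become 0 without wild-type replicate 14.

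*Dynlt1b* (ENSMUSG00000096255, chromosome 17, 6430112 to 6436296), which encodes a light chain of the motor dynein, was chosen after its values were seen. It has near-identical copies, among them *Dynlt1a*, *Dynlt1c* and *Dynlt1f*, so that the assignment of reads to it is uncertain. It was at 0.916, 1.78 and 2.92 CPM in knockout and 0.230, 1.06 and 1.77 CPM in wild-type libraries, with a log2 difference of 0.69 (SE 0.140, adjusted p = 0.0990). The value of 0.230 CPM was that of wild-type replicate 17, the shallowest library, and lay below its detection limit of 0.69 CPM. Of the 3 libraries whose *Gpsm3* level went against the label, knockout replicates 1 and 11 had 0.916 and 1.01 CPM and wild-type replicate 11 had 1.77 CPM. The other 18 knockout libraries began at 1.01 CPM, so replicate 11 lay at their edge, and the other 19 wild-type libraries reached 1.56 CPM. Among the others 13 of 18 knockout libraries lay above the highest wild-type library, and the difference without those 3 was 0.79 (SE 0.135, adjusted p = 0.00985). Over all alternatives the value was 0.63 to 0.82 and the adjusted p 0.00582 to 0.918. The gene lies 28.2 Mb from *Gpsm3* on the same chromosome.

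**Figure D5:**
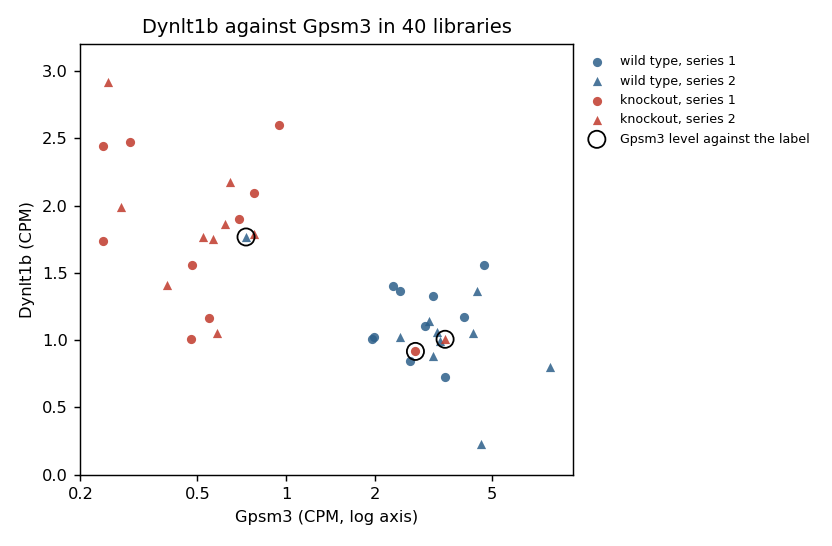
Dynlt1b level (CPM) against Gpsm3 level (CPM, log axis), with 1 point per library, color for the genotype label, shape for the number series and a ring around the 3 libraries whose Gpsm3 level went against it. The ringed knockout libraries have 0.916 and 1.01 CPM of Dynlt1b and the ringed wild-type library 1.77 CPM.

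Within 100 kb of *Gpsm3* lie 21 genes, of which 15 were tested. None but *Gpsm3* passed over all genes, and 2 had an unadjusted p under 0.05. *Pbx2*, a homeobox gene whose start overlaps the end of *Gpsm3*, was at 22.3, 32.3 and 41.1 CPM in knockout and 27.8, 37.8 and 50.4 CPM in wild-type libraries, with a log2 difference of −0.21 (SE 0.0593, unadjusted p = 0.00132). The pseudogene *Btnl7-ps* had −1.03 (SE 0.321, unadjusted p = 0.00273). Over the whole of chromosome 17, 27 of 841 genes tested (3.21%) were at an unadjusted p under 0.05, against 4.22% of all genes. Of the 25 genes with the smallest p, 4 lay on this chromosome, *Gpsm3* itself among them. The chromosome held 4.79% of the genes tested.

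The *Dock2* line was used for comparison because it alone among the other lines had the same DSS dose and schedule. It held 18 knockout mice, 8 of them female, and 24 wild-type mice, 12 of them female, whereas every mouse of the *Gpsm3* line was male, and sex was a term of that fit. The adjusted genotype effect differed between the lines for 31 of 18460 genes tested (0.168%). For 30 of them the effect was more positive in the *Gpsm3* line. Of the 31, 22 were immunoglobulin genes, with *Jchain* counted among them. The count was 20 without the 3 libraries whose *Gpsm3* level went against the label and 11 with sex as the only covariate. *Smox* had 0.13 (SE 0.0742) in the *Dock2* line, a difference of 0.20 (SE 0.0948) that did not pass (unadjusted p = 0.0363, adjusted p = 1.00). The difference for *Cxcl10* was 0.69 (SE 0.503, unadjusted p = 0.172).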

How the data were processed

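RNA was sequenced from distal colon of 40 mice. Per the labels and the methods of the study, libraries were stranded and depleted of ribosomal RNA, and the authors aligned reads with STAR to mm10 and counted them per gene with featureCounts of Subread (versions not given in the sources used here); the deposited values are raw counts. Of 39179 genes, 96.2% were named from the annotation and held 99.67% of counts. The members and gene lists were chosen with earlier results of these data known. Genes kept by filterByExpr were fitted with edgeR 4.0.16 (R 4.3.3, TMM, quasi-likelihood test, Benjamini-Hochberg threshold 0.05), and the script was tested on simulated data. Score and covariates used CPM of the file total with a pseudocount of 1. Single values were tested by two-sided permutation with 100000 resamples (scipy 1.17.1). DESeq2 1.42.0 and limma 3.58.1 (voom), other filters, scalings, scores and covariates, each number series and sets of left-out libraries were alternatives; the left-out sets other than the shallowest library were chosen after seeing the data. Genes named were the 4 marker genes and the covariate genes, those passing the test, the 3 smallest p-values of each list, the leading genes by p and those within 100 kb of *Gpsm3*; *Isg15*, *Ifit1*, *Dynlt1b* and further members of lists were named after their values were seen. No 2 libraries of a genotype agreed within sampling noise (380 pairs). Intervals of depth cover counting error only.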

Additional observations from a re-analysis of the deposited data

Results flagged for a closer look

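The adjusted knockout effect differed between the *Gpsm3* and *Dock2* lines, by a test of the difference itself with edgeR's quasi-likelihood test, in 31 genes, 20 without the 3 libraries whose *Gpsm3* level went against the label and 11 with sex as the only covariate. *Gpsm3* differed by −2.04 on the log2 scale, with −2.20 in the *Gpsm3* line and −0.14 in the *Dock2* line. *Dynlt1b* differed by 0.97 (adjusted p = 0.0125), with 0.69 in the *Gpsm3* line and −0.27 in the *Dock2* line. For the 22 immunoglobulin genes among the 31, with *Jchain* counted among them, the knockout effect was more positive in the *Gpsm3* line than in the *Dock2* line. This compares effects of genotype, not levels between the lines. *Jchain*, which encodes the joining chain of immunoglobulins, had 0.93 in the *Gpsm3* line (adjusted p = 0.977) and −1.81 in the *Dock2* line (adjusted p = 0.0356). Of 14 genes of this set, *Jchain* included, that were tested in both lines, 10 fell in the *Dock2* line by its own test. In the *Gpsm3* line no gene other than *Gpsm3* and *Smox* passed. The lines hold different mice, so the deleted gene and any other difference between the lines cannot be told apart.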

How the results depend on the processing

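The 2 genes that passed the adjusted test, *Gpsm3* and *Smox*, became 4 with DESeq2 (with *Dynlt1b* and *Cfap97*), 5 with no filter (with *Krt86*, *Krt81* and *Mpped1*), 1 with the score as the only covariate, 1 with no covariates, 0 in the first number series and 1 in the second. Without covariates the count of 1 became 2 without the 3 libraries whose *Gpsm3* level went against the label, 2 without the 3 rich in *Krt1* and *Acta1*, and 32 with no filter. The 31 genes that differed between lines became 48 with no filter, 11 with sex as the only covariate and 20 without the 3 libraries against the label. *Gpsm3* was −1.96 in the first number series (adjusted p = 0.4996). The *Krt1* and *Acta1* differences were −0.983 and −0.865 in the first number series, and that of *Acta1* −0.021 without the 3 libraries rich in both. Adjusted differences that changed sign in the first number series were those of *H2-Ab1* (−0.032), *H2-Aa* (−0.038), *Cd74* (−0.026), *H2-DMa* (−0.15) and *H2-DMb1* (−0.34), the last also without wild-type replicate 14 (−0.071) and without the library of highest *Isg15* in each genotype (−0.019); *Krt14* was 2.25 with the score as the only covariate. The cause of these changes was not tested, beyond the smaller number of samples in a number series. No paired analysis was possible because the sample numbers are unique to a mouse and shared by no pair of groups. The labels do not tell which mice received DSS, and 3 libraries went against their label. At 3 counts, levels below 0.15 CPM in the deepest and 0.69 CPM in the shallowest library were not detectable.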

Other observations

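Because *Smox* acts on polyamines, other genes of that pathway were read after its value was seen. *Odc1* and *Srm*, which act in polyamine synthesis, had adjusted log2 differences of 0.00 (SE 0.0917) and 0.03 (SE 0.109), *Sat1*, which acetylates polyamines for export, 0.03 (SE 0.0601), and *Paox*, another polyamine oxidase gene, −0.01 (SE 0.0666). *Amd1* had 0.12 (SE 0.0951) and *Azin1* 0.09 (SE 0.0910). None of these 6 had an unadjusted p under 0.05.

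*Pfkfb4*, which encodes a regulator of glycolysis, had 0.26 (SE 0.0609, edgeR adjusted p = 0.375), with 24.97, 38.0 and 52.7 CPM (lowest, median and highest) in knockout and 21.04, 36.2 and 42.1 CPM in wild-type libraries. Without the 3 libraries rich in *Krt1* and *Acta1* it was 0.33 (adjusted p = 0.0140).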
